A study of Mus musculus with 8 samples.

Results

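Transcripts of the type 2 cytokine locus and of its regulators were examined in CCR8+ and CCR8- conventional CD4+ T (Tconv) cells from tumors. The members were the rows of the deposited table whose symbols are *Il4*, *Il5*, *Il13*, *Rad50*, *Gata3*, *Il4ra* and *Stat6*. All 7 were among its 11233 genes, and all 7 also had a mean of at least 10 normalized counts, as did 11032 genes in all. They were chosen by their normalized counts in the comparison of the populations, so their values are a description and carry no test.

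The cells came from B16-F10 melanoma tumors, a line implanted subcutaneously into *Foxp3*EGFP-DTR mice of either sex aged 8 to 14 weeks. These mice carry the diphtheria toxin receptor and EGFP under the control of *Foxp3*, the gene of the lineage factor of regulatory T (Treg) cells, so that diphtheria toxin (DTx) removes Treg cells and EGFP-negative sorting leaves Tconv cells. Every mouse was given DTx, at 1 μg in each of 4 injections from day 7 to day 13, and tumors were taken on day 16, or day 18 by the title of a supplementary table. The populations therefore share genotype, tumor and treatment, differ by their labels only in the sort for surface CCR8, a chemokine receptor, and have 4 libraries each. No group with intact Treg cells was analysed here. The paper describes 4 biological replicates, all isolated on a single day. As the sources do not say whether a library is 1 mouse, p-values measure the spread between these libraries only.

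Type 2 helper (Th2) cells make IL-4, IL-5 and IL-13 from one cluster of genes that is conserved between mouse and human. IL-4 binds a receptor with the IL-4Rα chain, which activates STAT6, and STAT6 in turn raises GATA3, the factor that opens the cluster and drives *Il5* and *Il13* most directly. IL-5 is known as the growth factor of eosinophils, IL-13 acts on epithelium and macrophages, and a control region for the cytokine genes lies inside *Rad50*.

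Each library held between 12067780 and 17802628 reads in genes, and 1 read was worth 0.735 to 1.14 normalized counts. CCR8- replicate 1 stood apart, with 8569 genes detected beside a median of 10542 and with 242 genes at 0 that were at 100 or more in every other library. CCR8+ replicates 1 and 3 were next, with 9544 and 9701 genes detected and 44 and 36 such genes, and the other 5 libraries had 0. *Ccr8*, the transcript of the sorting marker, was at 7975, 6970, 42508 and 22965 normalized counts in the CCR8+ libraries against 2039, 1293, 6214 and 4637 in the CCR8- libraries, so every CCR8+ library was above every CCR8- library and CCR8+ replicate 3 was the highest. Here as throughout, the values of a population are given in the order of replicates 1 to 4. All 8 T cell markers were present, with a summed level of 82694 to 118605 in CCR8+ and 82539 to 109872 in CCR8- cells. No gene in the table passed the call in limma (adjusted p under 0.05 and fold change above 3), where 562 of 11032 genes (5.09%) had an unadjusted p under 0.05. edgeR also called 0 genes, and DESeq2 called 23 genes (0.208%).

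On the GRCm38 assembly the cytokine genes lie on chromosome 11 in the order *Il4*, *Il13*, *Rad50* and *Il5* within 122125 bases. *Il4* occupies positions 53602982 to 53618669, *Il13* 53631324 to 53634702 and *Rad50* 53649519 to 53707319, all on the minus strand, and *Il5* occupies 53720794 to 53725106 on the plus strand. *Il4* and *Il13* are 12655 bases apart, *Il13* and *Rad50* 14817, and *Rad50* and *Il5*, which start away from each other, 13475. The positions are from GENCODE, since the authors' own assembly, NCBIM37, was not used here.

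The promoters of the cytokine genes are shown because GATA3 and STAT6 are the regulators that the other members encode. RefSeq start sites on GRCm38.p6 matched 6 of the 7 members, all but *Rad50*. The 250 bases before each start follow, 5′ to 3′ on the strand of the gene, at chr11:53618666-53618915 on the minus strand for *Il4* (the start nearest the 5′ end of the gene), chr11:53720544-53720793 on the plus strand for *Il5* and chr11:53634703-53634952 on the minus strand for *Il13*. Capitals mark matches to a GATA motif, read as AGATAA, as AGATAG, as TGATAA or else as TGATAG, or to the STAT6 motif TTCNNNNGAA, on either strand.
Il4: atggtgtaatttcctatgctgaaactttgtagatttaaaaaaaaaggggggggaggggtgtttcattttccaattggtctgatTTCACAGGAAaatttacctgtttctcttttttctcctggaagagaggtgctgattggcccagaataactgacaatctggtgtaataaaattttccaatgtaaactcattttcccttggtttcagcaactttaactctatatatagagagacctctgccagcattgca
Il5: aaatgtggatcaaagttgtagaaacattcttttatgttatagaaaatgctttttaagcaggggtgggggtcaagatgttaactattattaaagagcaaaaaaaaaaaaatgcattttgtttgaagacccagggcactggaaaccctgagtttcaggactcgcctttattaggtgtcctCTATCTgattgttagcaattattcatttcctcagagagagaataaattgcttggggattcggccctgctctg
Il13: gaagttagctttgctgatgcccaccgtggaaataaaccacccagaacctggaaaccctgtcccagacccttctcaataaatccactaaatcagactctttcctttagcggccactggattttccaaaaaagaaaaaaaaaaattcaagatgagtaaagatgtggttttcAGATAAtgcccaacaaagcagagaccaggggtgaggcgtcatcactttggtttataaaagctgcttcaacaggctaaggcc

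The *Il5* promoter held CTATCT, the reverse complement of AGATAG, 72 bases before the start, and the *Il13* promoter held AGATAA 81 bases before it. The *Il4* promoter held no GATA match before its start and one, TGATAA, 15 bases after it. Only *Il4* among these promoters held the STAT6 motif, as TTCACAGGAA 167 bases before the start, and that match runs into an NFAT core (GGAAA). In windows of 250 bases before to 50 after the start, a GATA match occurred in 29.8% of 32851 RefSeq promoters, the STAT6 motif in 6.95%, the NFAT core in 61.3% and an AP-1 motif (TGANTCA) in 7.81%. Neither *Il4ra* nor *Stat6* had a GATA or STAT6 match, *Gata3* had a GATA match 37 bases after its start, and none of the 6 promoters had the AP-1 motif. These matches describe letters in a window and not binding.

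*Il13* and *Il5* were higher in CCR8+ than in CCR8- Tconv cells in every library, whereas *Il4*, which lies in the same cluster, overlapped between the populations. The cytokines themselves are taken first. *Il13* was at 659, 425, 836 and 340 normalized counts in the CCR8+ libraries against 54.2, 61.0, 70.2 and 27.3 in the CCR8- libraries. The lowest CCR8+ library was far above the highest CCR8- library, and replicate 4 was the lowest of both populations. The means were 565 ± 225 and 53.2 ± 18.5 normalized counts (SD, n = 4), with a log2 fold change of 3.38 (SE 0.66). The CCR8- values rest on 55, 83, 80 and 24 reads, so this was the member with the fewest reads.

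*Il5* was at 13549, 12437, 43276 and 9430 normalized counts in the CCR8+ libraries against 2694, 2247, 5360 and 1525 in the CCR8- libraries. The populations did not overlap, replicate 3 was the highest and replicate 4 the lowest of each, and CCR8+ replicate 3 held 3.19 times the next library. The means were 19673 ± 15832 and 2956 ± 1673 (SD, n = 4), with a log2 fold change of 2.61 (SE 0.48), or 2.14 without CCR8+ replicate 3. Of the exonic bases of *Il5*, 27.1% also belong to an antisense gene, *Gm12214*, and the use of strand in counting is not given in the sources used here.

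*Il4* was at 3567, 3245, 13172 and 2115 normalized counts in the CCR8+ libraries against 3885, 2105, 2729 and 1384 in the CCR8- libraries. CCR8+ replicate 3 stood far above all other libraries, at 3.69 times the next CCR8+ library, and the other CCR8+ libraries lay within the range of the CCR8- libraries. The means were 5525 ± 5136 and 2526 ± 1060 (SD, n = 4), with a log2 fold change of 0.85 (SE 0.51). Without CCR8+ replicate 3 it was 0.30, and the CCR8+ mean was 2975.

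**Figure D1:**
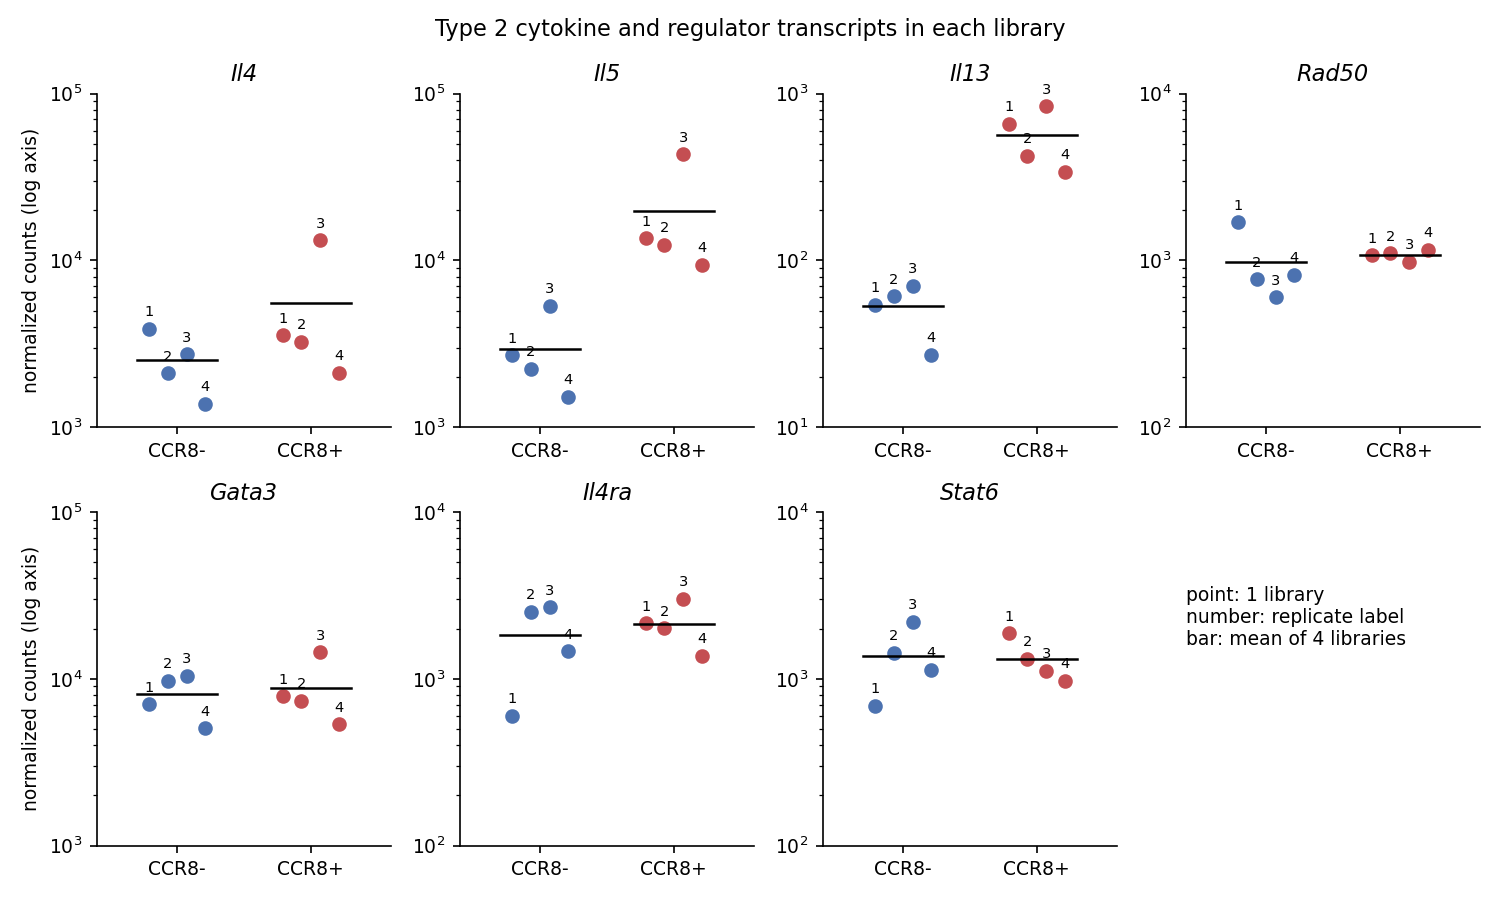
Normalized counts of the 7 members (log axis) in each CCR8- and CCR8+ library, with the replicate label above each point and a bar at the mean of 4 libraries. The populations are apart for *Il5* (9430 or more against 5360 or less) and *Il13* (340 or more against 70.2 or less) and overlap for the other 5 members.

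In all, 2 of the 7 members had all CCR8+ libraries above all CCR8- libraries and 0 had them all below, where 2.37% of the 11032 genes were above and 2.03% below. limma called 0 of the 7 (0% of all genes) and DESeq2 called 2, *Il5* and *Il13* (0.208% of all genes). The median log2 fold change was 0.40 over the members and 0.04 over all genes. As the contrast chose the members, these counts are listed only for orientation.

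Per kilobase of exon, *Il5* was the most abundant member transcript in CCR8+ cells, at 12800 ± 10300 normalized counts per kb (SD, n = 4), and ranked between 18 and 140 among 10815 genes in those libraries. In CCR8- cells *Il5* was at 1924 ± 1088 per kb, beside 2059 ± 864 for *Il4* and 2030 ± 626 for *Gata3*, and these neighbours in the order did not differ beyond their spread. In CCR8+ cells *Il4* was at 4503 ± 4186 and *Gata3* at 2202 ± 990 per kb, again within their spread. *Il13* was the lowest of the cytokines in both, at 469 ± 187 per kb with ranks of 1234 to 2424 in CCR8+ cells and at 44.1 ± 15.3 per kb with ranks of 5759 to 7798 in CCR8- cells. *Il4ra* (356 ± 112 in CCR8+ and 303 ± 163 in CCR8- cells) and *Stat6* (300 ± 89.6 and 310 ± 144) did not differ beyond their spread. *Rad50*, at 200 ± 13.4 in CCR8+ and 181 ± 91.6 in CCR8- cells, ranked last in the CCR8+ libraries and within the spread of *Il4ra* and *Stat6* in CCR8- cells.

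*Gata3*, which encodes the master factor of Th2 cells, overlapped widely between the populations. It was at 7853, 7413, 14432 and 5344 normalized counts in the CCR8+ libraries against 7047, 9735, 10463 and 5057 in the CCR8- libraries. The populations overlapped, with replicate 3 the highest and replicate 4 the lowest of each. The means were 8760 ± 3936 and 8076 ± 2491 (SD, n = 4), the log2 fold change was 0.08 (SE 0.33), and its sign turned to -0.20 without CCR8+ replicate 3 and to -0.13 without CCR8- replicate 4.

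*Stat6*, which encodes the factor that IL-4 and IL-13 activate, was at 1870, 1318, 1115 and 971 normalized counts in the CCR8+ libraries against 690, 1433, 2194 and 1135 in the CCR8- libraries. The CCR8+ libraries lay inside the range of the CCR8- libraries. The means were 1319 ± 394 and 1363 ± 633 (SD, n = 4) and the log2 fold change was 0.03 (SE 0.36), between -0.26 without CCR8- replicate 1 and 0.30 without CCR8- replicate 3.

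*Il4ra*, which encodes the receptor chain upstream of STAT6, was at 2154, 2014, 3013 and 1377 normalized counts in the CCR8+ libraries against 600, 2531, 2691 and 1459 in the CCR8- libraries. CCR8- replicate 1 was by far the lowest, and the populations overlapped. The means were 2140 ± 673 and 1820 ± 980 (SD, n = 4), with a log2 fold change of 0.40 (SE 0.44). Without CCR8- replicate 1, the library with the fewest detected genes, it was -0.06. Of the exonic bases, 9.51% are shared with an antisense gene, *Gm44876*, beside 3.90% with *Gm13256* for *Gata3* and 0.909% with *Nab2* for *Stat6*.

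*Rad50*, which encodes a subunit of a DNA break repair complex and lies between *Il13* and *Il5*, overlapped between the populations. It was at 1072, 1101, 982 and 1153 normalized counts in the CCR8+ libraries against 1697, 768, 603 and 819 in the CCR8- libraries. The CCR8+ libraries were close to each other, and CCR8- replicate 1 was above and the other CCR8- libraries below all of them. The means were 1077 ± 71.8 and 972 ± 492 (SD, n = 4), with a log2 fold change of 0.26 (SE 0.32), which was 0.57 without CCR8- replicate 1, with the populations then apart, and 0.07 without CCR8- replicate 3.

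The labels number the libraries 1 to 4 in both populations, although the sources do not say that a number stands for a mouse. Within the same number, *Il13* was 12.2, 6.96, 11.9 and 12.5 times and *Il5* 5.03, 5.53, 8.07 and 6.18 times as high in the CCR8+ library for numbers 1 to 4. *Il4* gave 0.918, 1.54, 4.83 and 1.53. The cytokines thus differed in the size of the ratio, with every *Il13* ratio above 3 of the 4 *Il5* ratios, and *Il4* was lower in CCR8+ for number 1. *Gata3* ratios ran from 0.761 to 1.38, *Rad50* from 0.632 to 1.63, *Il4ra* from 0.796 to 3.59 and *Stat6* from 0.508 to 2.71, and number 1 gave the highest ratio for *Il4ra* and *Stat6*.

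Ratios between transcripts of the same library do not depend on its normalization. The ratio of *Il13* to *Gata3* was 0.0840, 0.0573, 0.0579 and 0.0637 in the CCR8+ libraries against 0.00769, 0.00627, 0.00671 and 0.00539 in the CCR8- libraries. It was apart between the populations and spanned a narrower range within each than *Gata3* itself, whose highest library was 2.70 times the lowest in CCR8+ and 2.07 times in CCR8- cells. The ratio of *Il5* to *Gata3* was 1.68 to 3.0 in CCR8+ and 0.231 to 0.512 in CCR8- cells, again apart.

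Within the locus, *Il5* to *Il4* was 3.80, 3.83, 3.29 and 4.46 in the CCR8+ libraries against 0.693, 1.07, 1.96 and 1.10 in the CCR8- libraries. CCR8+ replicate 3, which had the highest *Il4* and *Il5*, had the lowest *Il5* to *Il4* ratio of its population, and the populations were apart. *Il13* to *Il4* was 0.0635 to 0.185 in CCR8+ and 0.0139 to 0.0290 in CCR8- cells, also apart. *Il5* to *Il13* (20.6 to 51.8 and 36.8 to 76.4) and *Il4* to *Gata3* (0.396 to 0.913 and 0.216 to 0.551) overlapped. These ratios draw on the contrast that chose the members and were not tested.

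**Figure D2:**
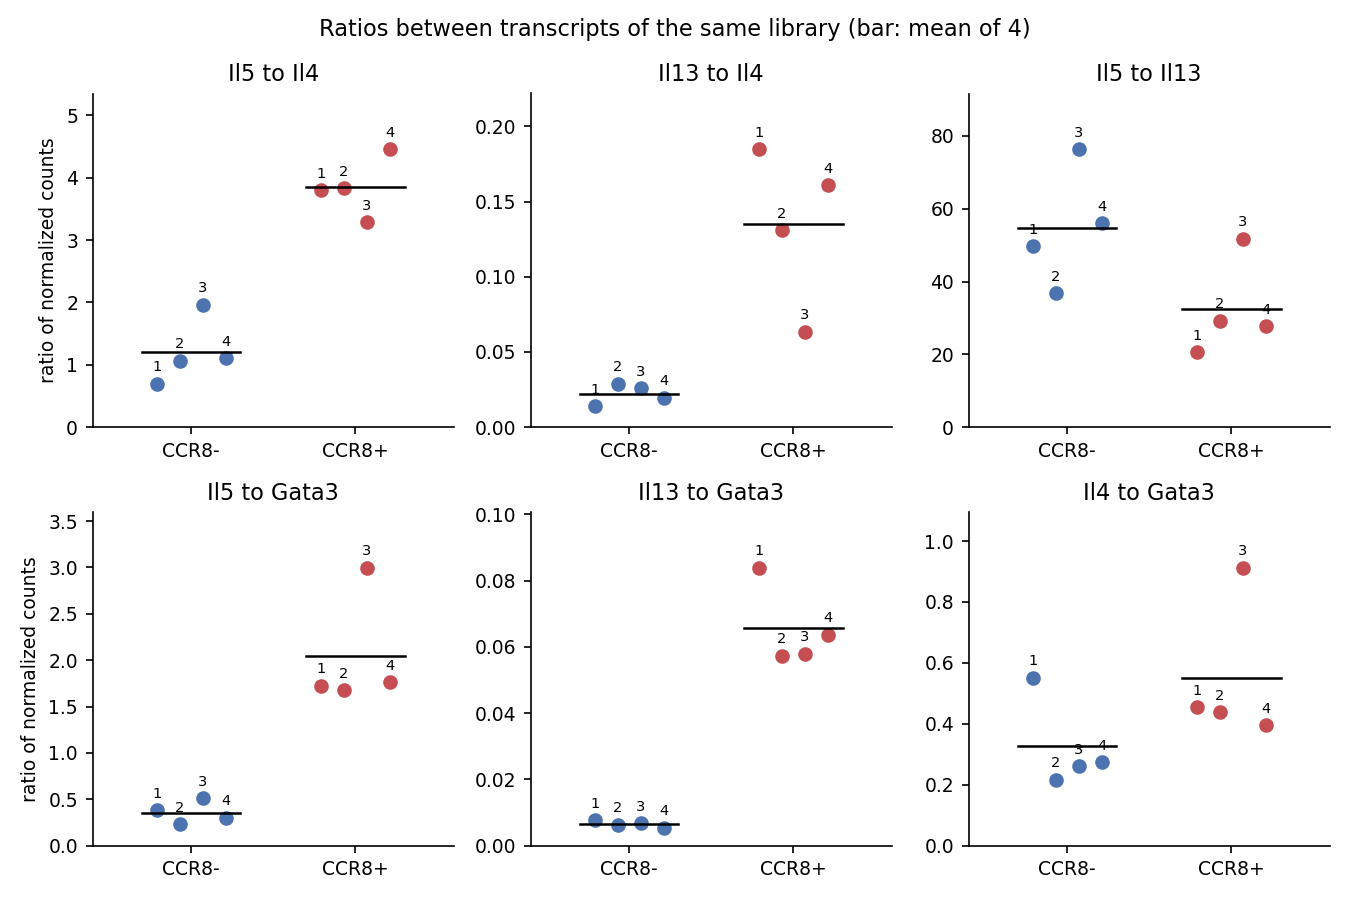
Ratios of normalized counts between transcripts of the same library, by population, with the replicate label above each point and a bar at the mean of 4. *Il5* and *Il13* are apart between the populations relative to both *Il4* and *Gata3*, for example 3.29 to 4.46 against 0.693 to 1.96 for *Il5* to *Il4*, whereas *Il5* to *Il13* and *Il4* to *Gata3* overlap.

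Across libraries the cytokines varied together with *Gata3*. In CCR8+ cells the order of replicates was 3, 1, 2, 4 from high to low for *Il4*, *Il5*, *Il13*, *Gata3* and *Il4ra*, and in CCR8- cells replicate 4 was the lowest for *Il4*, *Il5*, *Il13* and *Gata3*. After the mean of each population was removed from log2(normalized count + 1), the 8 libraries gave Pearson r of 0.87 for *Il4* and *Il5*, 0.78 for *Il4* and *Il13* and 0.83 for *Il5* and *Il13*, with Spearman rho of 0.95, 0.81 and 0.90. Without CCR8+ replicate 3 the r were 0.66, 0.74 and 0.79. The points share their libraries, depth and cell mixture, so these are descriptions.

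*Gata3* had r of 0.81 with *Il4*, 0.90 with *Il5* and 0.92 with *Il13* (rho 0.83, 0.93 and 0.98). In likeness to these it ranked 154, 45 and 14 of 11031 genes. The cytokines ranked between 53 and 226 in likeness to each other, so other genes were closer to each of them. Without CCR8+ replicate 3 the r of *Gata3* were 0.57, 0.79 and 0.92. *Rad50*, inside the cluster, did not follow the cytokines, with r of 0.14 with *Il4*, -0.28 with *Il5* and -0.17 with *Il13*. It ran opposite to *Il4ra* (r of -0.92) and *Stat6* (r of -0.82), which had r of 0.80 with each other, and CCR8- replicate 1 was the extreme of all 3.

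**Figure D3:**
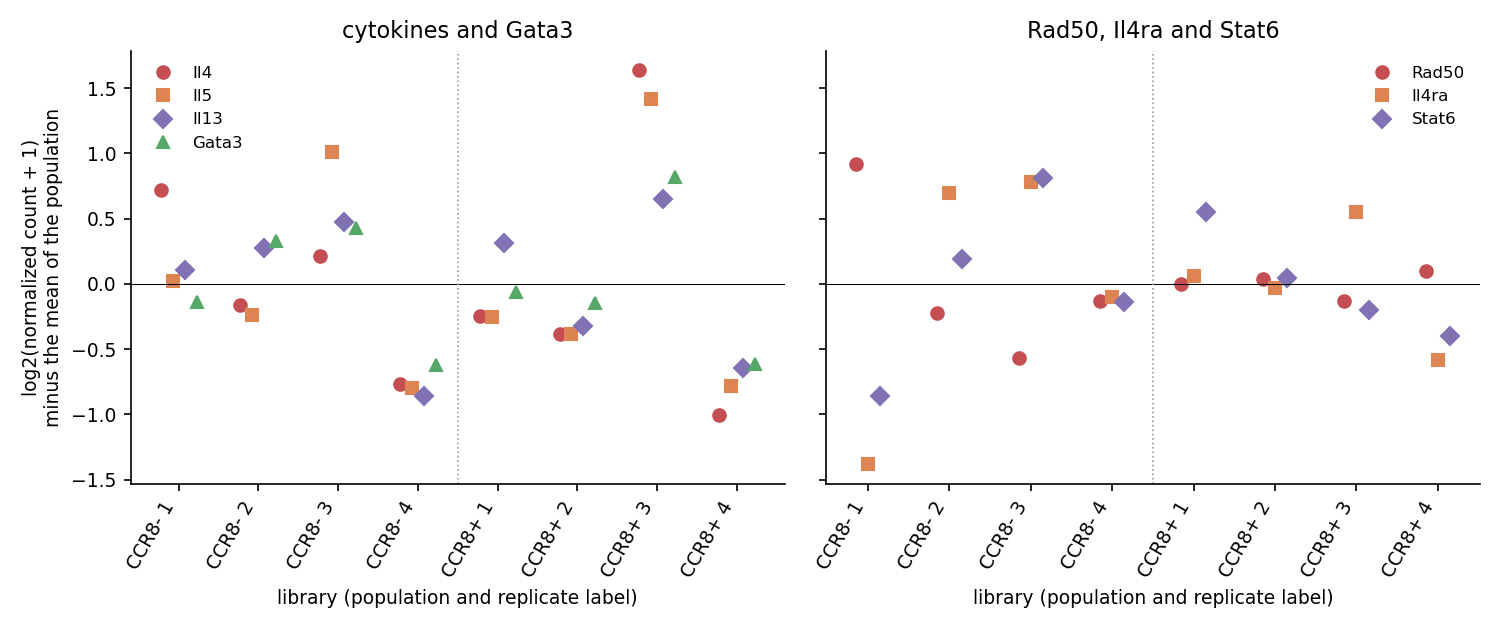
Log2(normalized count + 1) minus the mean of the population (vertical axis) in each CCR8- and CCR8+ library, for the cytokines and *Gata3* (left) and for *Rad50*, *Il4ra* and *Stat6* (right). Replicate 4 is low and CCR8+ replicate 3 high for the cytokines and *Gata3* together, whereas CCR8- replicate 1 is high for *Rad50* and low for *Il4ra* and *Stat6*.

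By the same measure the genes most like *Il4* were *Abhd17b*, *Il2ra*, *Aff4*, *Rnf19b* and *Tec* (r of 0.97 to 0.99), and 31 genes exceeded 0.9. *Il2ra* encodes the IL-2 receptor alpha chain and *Tec* a kinase of the T cell receptor pathway. Those most like *Il5* were *Itm2a*, *Ubl7*, *Zfp777*, *Fbxw11* and *Med15* (0.97 to 0.98), with 46 genes above 0.9. For *Il13* they were *Trim65*, *Gltscr1l*, *Camta2*, *Il10ra*, which encodes an IL-10 receptor chain, and *Adpgk* (0.93 to 0.97), with 25 genes above 0.9. For *Gata3* they were *Acadvl*, *Otud5*, *Itm2a*, *Ltb4r1*, which encodes a leukotriene B receptor, and *Tm7sf3* (0.95 to 0.99), with 25 genes above 0.9. *Itm2a* was the only name on more than one of these lists.

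The neighbours of the locus were compared to see how far the difference reached. *Kif3a*, which encodes a kinesin motor subunit and ends 1.015 kb from the end of *Il4*, was at 731, 644, 877 and 843 normalized counts in the CCR8+ libraries against 595, 295, 330 and 299 in the CCR8- libraries. All CCR8+ libraries were above all CCR8- libraries, with a log2 fold change of 1.08 (SE 0.34) that did not pass in limma (adjusted p = 0.838). *Irf1*, 44.9 kb beyond *Il5*, encodes an interferon-response factor and was at 5581 ± 1728 in CCR8+ and 7144 ± 2205 in CCR8- cells (SD, n = 4), with a log2 fold change of -0.37 (limma, adjusted p = 0.838).

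Of 18 genes listed as neighbours, 13 were tested, limma called 0 in either direction (2 at an unadjusted p under 0.05, and 0 in edgeR and DESeq2), and *Kif3a* alone was apart. Their median log2 fold change was -0.01, beside 0.04 over all genes. *Csf2*, which encodes GM-CSF and lies 522 kb beyond *Il5*, was at 5790 ± 3272 and 2991 ± 1538 normalized counts with a log2 fold change of 0.81, and *Il3* is another cytokine gene beside it. *Il3* was at 246, 1590, 0 and 52.2 in the CCR8+ libraries against 138, 262, 671 and 170 in the CCR8- libraries. CCR8+ replicate 2 alone lifted its CCR8+ mean to 472, against 99.5 without it, and its log2 fold change was -1.91 (SE 1.83), or 0.11 without CCR8+ replicate 3. *Pdlim4* (log2 fold change -3.58, SE 1.62) and *P4ha2* (-3.78, SE 1.83) had the lowest values, with at least 1 CCR8+ library at 0 in each, and their libraries overlapped. *Hspa4*, *Zcchc10*, *Aff4*, *Uqcrq* and *Sept8* were between -0.28 and 0.32, *Slc22a5* was at -2.07 with libraries at 0 in both populations, and *Gm12216*, a nearby gene outside the list, was at -1.48. *Shroom1* was at 0 in all CCR8- and in 3 CCR8+ libraries.

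**Figure D4:**
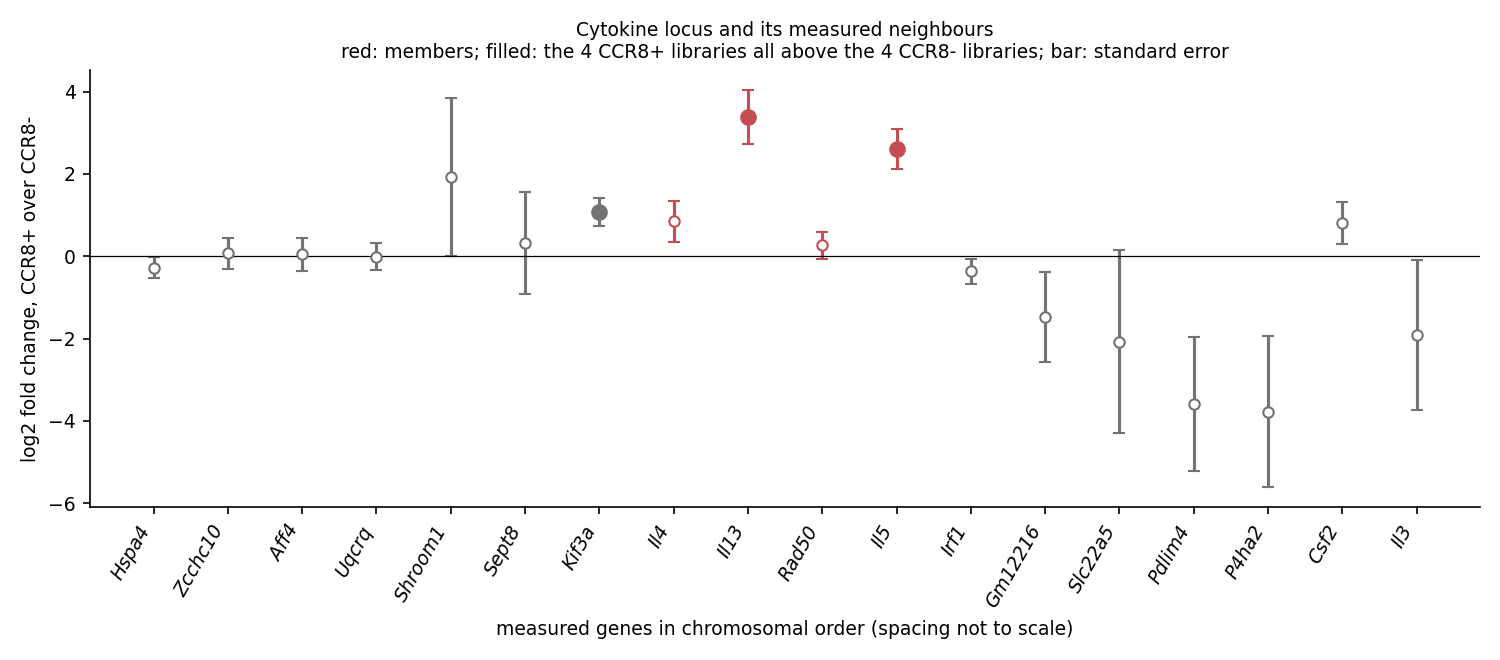
Log2 fold change of CCR8+ over CCR8- cells (vertical axis, bars are standard errors from limma) for the measured genes of the cytokine locus and its neighbours in chromosomal order, members in red. Filled points mark *Kif3a*, *Il13* and *Il5*, whose CCR8+ libraries were all above the CCR8- libraries, and the longest bars belong to genes of low counts, most of them at 0 in some libraries.

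The genes that carry the IL-4 and IL-13 signal inside the cell come next. Of 16 listed receptor chains, Janus kinases and feedback genes, 14 were tested and limma called 0 in either direction (1 at an unadjusted p under 0.05, and 0 in edgeR and DESeq2), with a median log2 fold change of 0.16 and no gene whose populations were apart. *Il2rg*, the common gamma chain that pairs with IL-4Rα, was at 26532 ± 4229 in CCR8+ and 49006 ± 36897 in CCR8- cells (SD, n = 4), a log2 fold change of -0.64. Its highest value, 103093, was in CCR8- replicate 1, without which the CCR8- mean was 30977 and the log2 fold change -0.20. *Cish*, a feedback inhibitor of cytokine receptors, was at 9843 ± 1396 and 6239 ± 2459 (log2 fold change 0.77), and *Jak1* at 4870 ± 161 and 5274 ± 1070 (log2 fold change -0.09). For these 3 genes the adjusted p in limma was 0.838, 0.838 and 0.942.

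Of 21 listed transcription factors that promote type 2 cytokine expression, 20 were tested and limma called 0 in either direction (9 at an unadjusted p under 0.05, and 0 in edgeR and DESeq2), with a median log2 fold change of 0.32. *Batf* and *Stat3* were higher in every CCR8+ library (log2 fold changes of 0.61 and 0.71). *Satb1*, a chromatin organizer of the cytokine locus, was at 2667, 3098, 409 and 1875 normalized counts in the CCR8+ libraries against 6477, 5242, 6108 and 3599 in the CCR8- libraries. It and *Ikzf1* were lower in every CCR8+ library (log2 fold changes of -1.72 and -1.10), and the adjusted p in limma was 0.838 for each of the 4. Without CCR8+ replicate 3, the lowest library for it, *Satb1* was at -1.07. The most abundant of the list over all 8 libraries were *Junb* (log2 fold change 0.03), *Bhlhe40* (0.45) and *Ets1* (-0.54, limma adjusted p = 0.838).

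Of 12 listed factors that restrain these cytokines, 9 were tested and limma called 0 (0 at an unadjusted p under 0.05, and 0 in edgeR and DESeq2), with a median log2 fold change of 0.00 and no gene apart. *Ndfip1*, an adaptor of the ubiquitin ligase Itch, was the most abundant, at 17334 ± 5506 in CCR8+ and 13414 ± 6233 in CCR8- cells (SD, n = 4). *Stat4* and *Runx3*, linked to type 1 responses, had log2 fold changes of -0.24 and 0.09.

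Of 22 other listed genes of Th2 cells, 17 were tested and limma called 0 (5 at an unadjusted p under 0.05, and 0 in edgeR), with a median log2 fold change of 0.47. *Cyp11a1*, which encodes the enzyme that starts steroid synthesis from cholesterol, was at 2559, 2622, 4680 and 796 normalized counts in the CCR8+ libraries against 203, 590, 594 and 125 in the CCR8- libraries. The populations were apart and replicate 4 was the lowest of each, as for the cytokines, with a log2 fold change of 2.86 (SE 0.61). Its adjusted p was 0.83 in limma and 0.00216 in DESeq2, which called it as the only gene of this list. *Areg*, which encodes the growth factor amphiregulin (log2 fold change 1.39), and *Ccr8* (2.37), the gene of the sort, were also higher in every CCR8+ library. The largest log2 fold change of the list was that of *Il10*, at 3.80 (SE 1.09, limma adjusted p = 0.838). It was at 3440, 1265, 18130 and 2460 in the CCR8+ libraries against 24.6, 360, 1408 and 391 in the CCR8- libraries, and overlapped. *Icos*, a costimulatory receptor and one of the 3 most abundant of the list with *Ccr8* and *Areg*, was at 11996 ± 5195 in CCR8+ and 19062 ± 5287 in CCR8- cells and overlapped.

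**Figure D5:**
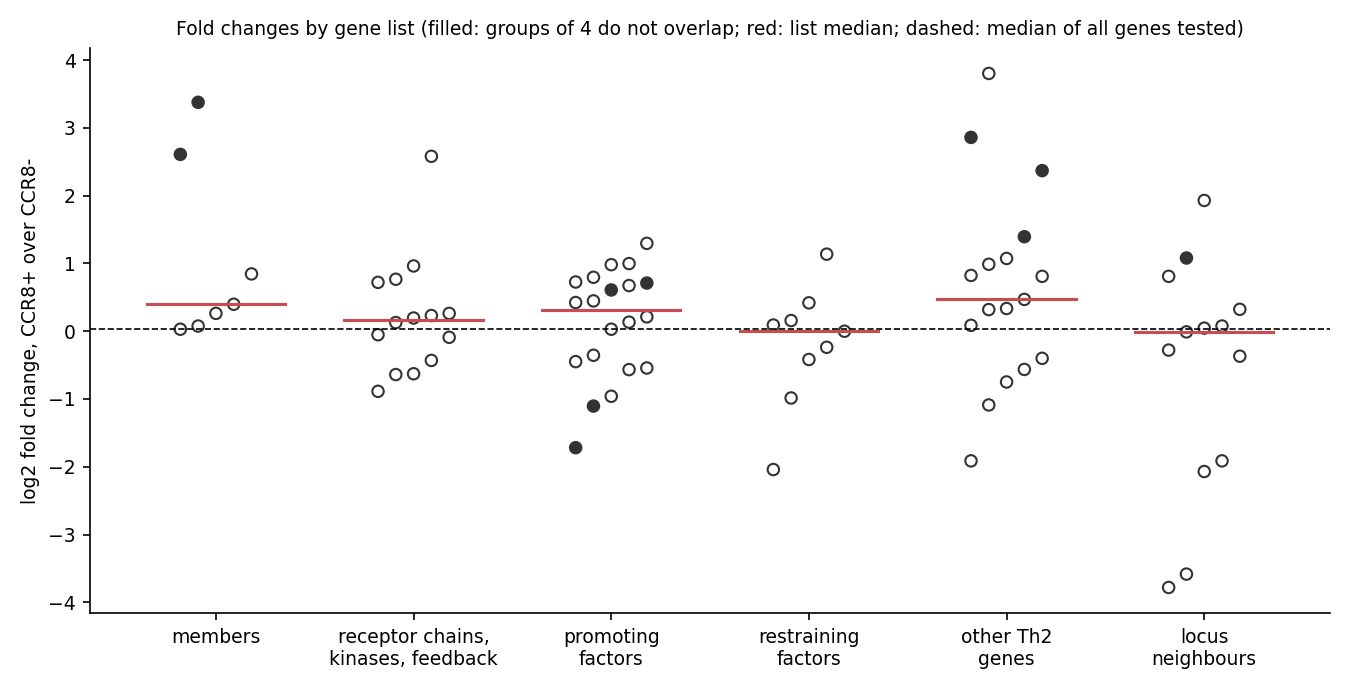
Log2 fold change of CCR8+ over CCR8- cells for each tested gene (points) of the members and of the 5 other lists, with list medians in red and the median of all genes dashed. Filled points are genes whose populations were apart, 2 of 7 members and 0 to 4 of the 9 to 20 tested genes of each other list. They include *Ccr8*, the gene of the sort. Over all 11032 genes, 2.37% were above and 2.03% below in every CCR8+ library.

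Markers of other cells were set beside these values, since in bulk libraries a change in the share of cells that make a transcript and a change in RNA per cell cannot be told apart. The summed level of the 4 listed Treg markers was 19283 to 55496 normalized counts in CCR8+ and 10294 to 13070 in CCR8- cells, so it moved with *Il5* and *Il13*. *Ctla4* and *Il2ra*, which activated T cells also express, made most of it, and the list was split. *Ikzf2* was at 0 to 393 in CCR8+ and 192 to 289 in CCR8- cells (log2 fold change -2.48, SE 1.58). *Lrrc32* was at 41.1 to 120 and 0 to 85.2 (log2 fold change 3.01, SE 1.83), and both genes overlapped between the populations. Of 10 markers of mast cells and basophils, other sources of IL-4 and IL-13, only 2 were among the 11233 genes with values, so the rest could not be read. *Hdc* was at 4069 to 34181 in CCR8+ and 1019 to 6960 in CCR8- cells, with both maxima in replicate 3, and *Cpa3* was at 0 to 39.5 and 0 to 68.4. Their part in the result was not tested.

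The 6 markers of group 2 innate lymphoid cells, which make IL-5 and IL-13, summed to 15314 to 26465 in CCR8+ and 11675 to 16667 in CCR8- cells. The list holds genes that Th2 cells share, such as *Il1rl1*, and it was split. *Arg1* had the largest log2 fold change, 1.96 (4598 ± 1685 and 1599 ± 1563, SD, n = 4). *Il7r* alone was negative, at -0.56 (3099 ± 1520 and 4246 ± 620), and all 6 overlapped between the populations. Eosinophil markers, of which only 2 of 5 had values, summed to at most 289. B cell markers reached at most 447, with *Ms4a1* at 0 in all 8 libraries, and the 4 natural killer cell markers summed to 0 in all CCR8+ libraries against 309, 40.4, 240 and 285 in the CCR8- libraries, so they moved with the comparison at a low level. Melanoma markers (6 of 6) summed to 308, 5165, 232 and 21777 in the CCR8+ libraries against 105, 4367, 5514 and 17279 in the CCR8- libraries, so replicate 4, the lowest for the cytokines and *Gata3*, was the highest in both populations. Macrophage markers (9 of 9) summed to 2516 to 26287 and 27.6 to 58733, with the lowest sum in CCR8- replicate 1 and the highest in CCR8- replicate 4. CD8 markers reached 1227 and 3805 and dendritic cell markers 579 and 1304 in CCR8+ and CCR8- cells. Of the dendritic cell markers, *Cd209a* was at 583, 134, 45.6 and 0 in the CCR8- libraries against at most 1.68 in the CCR8+ libraries. DESeq2 called it lower in CCR8+ cells (adjusted p = 0.00798), as it did the natural killer cell marker *Klrb1c* (adjusted p = 0.0345). In limma the adjusted p was 0.838 for both. The part of these cells in the differences between populations or replicates was not tested.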

How the data were processed

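RNA-Seq libraries of sorted Tconv cells were grouped as CCR8+ or CCR8- by their labels, 4 to a group. According to the methods and the submitters' processing notes, the authors prepared them with a low-input SMARTer kit, used Cutadapt for trimming and hisat2 for alignment to NCBIM37, and counted reads that mapped uniquely. HTSeq and DESeq2 are also named there. Versions, counting settings and strand use are not given in the sources used here. The deposited values are a signal, namely read counts divided by 1 factor per library, and whole reads were recovered for 100% of values (tolerance 0.01). A gene at 3 reads had 2.21 to 3.42 normalized counts. This limit covers counting error only, as reads were counted without molecular identifiers.

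Values were used as deposited. For the comparison of populations, log2(normalized count + 1) was fitted in limma 3.58.1 (R 4.3.3) with its trend option. The fit covered the 11032 genes whose mean reached 10, and p-values were adjusted by Benjamini-Hochberg over them. Fold changes are on that scale, which shrinks the change of low genes but can enlarge or reverse it where single libraries are at 0. For *Pdlim4* and *Il3* the log2 fold changes were -3.58 and -1.91 in limma, against -1.86 and 0.61 in DESeq2. A call needed both an adjusted p under 0.05 and a fold above 3. edgeR 4.0.16 and DESeq2 1.42.0 on the recovered reads were alternatives, as were other scalings, pseudocounts, filters, a replicate block and leaving out each library. Gene symbols were matched to GENCODE M21 for 10815 of 11233 genes, and promoters to RefSeq. The scripts were tested on simulated data.

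The members and all gene lists were chosen with earlier results of these data known. The named genes are the members, the measured neighbours of the locus, the genes of each list that were called, that were apart between the populations or were among the 3 most abundant, the 5 genes most like each cytokine and *Gata3*, *Ccr8* and marker genes. *Il10*, with the largest fold change of its list, was also named. Unused columns of per-sample values numbered 0.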

Additional observations from a re-analysis of the deposited data

Results flagged for a closer look

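In groups of 4 libraries, the gap of the highest or lowest value to the nearest library was taken as a share of the range. The value was marked where this share exceeded Dixon's 95% critical value. For normally distributed values chance does so in about 1 of 20 groups. Normalized counts were used without a log, and a single high library is marked more easily on that scale. Of 42 groups checked, 6 were marked, a number that therefore cannot be set against the 1 in 20. CCR8+ replicate 3 was marked for *Il4* (13172 normalized counts, the next library at 3567), for *Il5* (43276, the next at 13549), for *Areg* (25704, the next at 7048) and for *Hdc*, the histidine decarboxylase gene (34181, the next at 5189). *Hdc* was also marked in CCR8- replicate 3 (6960, the next at 1843). *Kif3a* was marked in CCR8- replicate 1 (595, the next at 330). *Il13* and *Gata3* were not marked in any library.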

How the results depend on the processing

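The numbers of calls depended on the tool. Against 0 genes in limma, limma without a trend called 2, DESeq2 called 23 and DESeq2 with its filter set for 0.1, an alternative chosen after seeing the data, called 13, whereas edgeR and the other scalings, pseudocounts and filters called 0. DESeq2 called 2 members, *Il5* and *Il13*, or 1 with the filter set for 0.1, where the adjusted p of *Il13* was not given. It called 1 or 2 of the other listed genes (*Cyp11a1*, and also *Areg* with the filter set for 0.1). Here and below, counts of listed genes leave out the markers. Deviations from the population means correlated by 0.0682, 0.138, 0.108 and 0.217 between libraries of the same number and from -0.171 to 0.101 between libraries of different numbers. All 4 CCR8+ libraries and 3 of 4 CCR8- libraries correlated best with their own number, a hint of pairing from the data. The lowest same-number value, 0.0682, was below the highest between different numbers, 0.101. As no source states a pairing, the numbers were not taken to pair the libraries in the main fit. With a replicate block limma called 1 gene, *Il5*, edgeR called 0, and DESeq2 called 80 genes, among them 2 members and 3 other listed genes (*Ccr8*, *Cyp11a1* and *Il10*). The cause was not tested.

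With 1 library left out, limma called 0 genes, 0 members and 0 listed genes in all 8 cases. Between 2 and 3 members had populations apart, the third being *Rad50* without CCR8- replicate 1. The shares of all genes that were apart, given above, are for the full set of libraries and do not serve where 1 was left out. The gain of *Rad50* therefore stands without a comparison. The log2 fold change of *Il13* ran from 3.09 to 3.59, of *Il5* from 2.14 to 2.95, of *Il4* from 0.30 to 1.18, of *Rad50* from 0.07 to 0.57, of *Gata3* from -0.20 to 0.28, of *Il4ra* from -0.06 to 0.66, of *Stat6* from -0.26 to 0.30 and of the median of the members from 0.30 to 0.66. The list medians ran from -0.06 to 0.35 for receptor chains, kinases and feedback, from 0.011 to 0.47 for promoting factors, from -0.39 to 0.10 for restraining factors, from 0.11 to 0.83 for other Th2 genes and from -0.29 to 0.18 for the neighbours. The 0.011 and -0.39 and the 0.18 were without CCR8- replicate 1, and the -0.29 was without CCR8- replicate 3.

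Under the other scalings, pseudocounts and filters the signs of the log2 fold changes of *Il4*, *Il5*, *Il13*, *Rad50* and *Il4ra* held, whereas *Gata3* reached -0.01 and *Stat6* -0.04. Quantile normalization moved *Il13* to 4.03 and the centred r of *Il13* with *Il5* to 0.46 and with *Gata3* to 0.49. Depth limits *Il13* in CCR8- cells, where 24 to 83 reads lie behind each value.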
